A study of Homo sapiens with 12 samples.

Results

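The genes described here are 8 keratins: KRT7, KRT8, KRT18 and KRT19 of simple epithelia, KRT17 of basal and stressed epithelia, KRT80, and the hair keratins KRT81 and KRT86. They were picked by symbol from the deposited table of RNA immunoprecipitation (RIP) values, where they are 8 of 60675 genes, and were linked by Ensembl identifier to the table of read counts, where all 8 were found among 27745 genes. That table lists 55 keratin genes in all, pseudogenes left out, so 47 other keratins were read beside the 8. The genes were named with earlier results of these data known, and which measured values led to the choice is not recorded. The rule names symbols and sets no threshold. The values are therefore a description: p-values come from a fit over all genes and are printed as its output, and the number of members that changed is no independent support for anything.

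The cells are MDA-MB231, a human breast cancer line of mesenchymal-like appearance. In the knockdown experiment, lentivirus gave stable expression of a short hairpin RNA (shRNA), and infected cells were selected before RNA was taken: a control hairpin (sh_control), a hairpin against TDP43 (sh_TDP43, gene TARDBP) or a hairpin against SRSF3 (sh_SRSF3), with 2 libraries each. A combined knockdown of both proteins is labelled too but was not analysed here, because no count column carries its name. In the RIP experiment, cells overexpressed Flag-TDP43 or Flag-SRSF3, and RNA recovered with a Flag antibody was sequenced beside input RNA of the same cells, with 1 library each. All groups carry either a hairpin or a Flag-tagged protein, and no untreated cells are among the samples. The count columns of sh_TDP43 and of sh_SRSF3 each carry a further number, the same in both duplicates, whose meaning is not stated. The labels do not give the hairpin sequences or how many were used, nor whether duplicates were grown apart. A p-value here is thus relative to the variation between duplicates, which may be purely technical.

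Keratins are the intermediate filament proteins of epithelial cells, and every filament is built from pairs of a type I and a type II chain. KRT8 and KRT18 pair in simple epithelia, with KRT7 (type II) and KRT19 (type I) as further chains of ducts and glands, while hair keratins such as KRT81 and KRT86 belong to the hair shaft and also occur in some breast cancer lines. TDP43 and SRSF3 are RNA-binding proteins that act in splicing and in later steps of messenger RNA processing. The question the knockdowns and the RIPs address is which transcripts respond to each protein and which are recovered with it.

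In the GRCh37 coordinates of the count table, 6 of the 8 genes lie in the keratin cluster of chromosome 12. The type II genes KRT80 (chr12:52562780-52585784), KRT7 (chr12:52626304-52645970), KRT86 (chr12:52643084-52702947), KRT81 (chr12:52679697-52685318) and KRT8 (chr12:53290971-53343738) are followed by the type I gene KRT18 (chr12:53342655-53346685). KRT19 (chr17:39679869-39684560) and KRT17 (chr17:39775689-39781094), both type I, lie on chromosome 17. KRT8 and KRT18 are on opposite strands and share 525 bases of exon, which is 7.63% of the exon length of KRT8 and 16.3% of that of KRT18. Counting was made without a strand setting, so reads from the shared bases cannot be assigned to either gene. The span of KRT86 overlaps KRT7 and KRT81 without sharing exon bases. KRT81 and KRT86 are near-identical copies, and the counting command in the file header sets no option for reads that match several places, so the share of each is uncertain. The RIP table lists 50 pseudogenes of KRT8 and 67 of KRT18.

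The 6 knockdown libraries held between 34457445 and 38326930 counted reads. Levels below are counts scaled to library size (CPM, after TMM scaling), and levels of different genes are compared only per kilobase of exon. That length counts every annotated exon base of a gene, so orders, sums and shares across genes depend on it. TARDBP stood at 168 and 125 CPM in sh_control, 34.4 and 31.3 CPM in sh_TDP43, and 108 and 102 CPM in sh_SRSF3. SRSF3 stood at 459 and 404 CPM in sh_control, 187 and 180.4 CPM in sh_TDP43, and 64.1 and 61.7 CPM in sh_SRSF3. Each target was lowest in its own knockdown (log2 change -2.15 for TARDBP and -2.78 for SRSF3), and each also fell in the other (-0.48 for TARDBP and -1.23 for SRSF3). The mesenchymal marker VIM stood between 1774 and 2398 CPM in every library. With TMM scaling it was lower in sh_TDP43 (log2 change -0.27, edgeR adjusted p = 0.0333) and in sh_SRSF3 (-0.32, edgeR adjusted p = 0.00927). SPARC, another marker of the mesenchymal-like line, stood only between 0.36 and 1.84 CPM. Of the basal markers, KRT5 was at or below 0.060 CPM and KRT14 at or below 0.27 CPM in every library, so the basal keratin pair was almost without reads, and of the 8 genes only KRT17 is a basal keratin.

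KRT81 was the most abundant keratin in control cells and fell in both knockdowns. It stood at 1049 and 1067 CPM in sh_control, at 368 and 303 CPM in sh_TDP43 and at 245 and 198 CPM in sh_SRSF3. The groups did not overlap, the controls were the highest, and the sh_SRSF3 libraries were the lowest. The log2 change was -1.66 (SE 0.12, 3.15-fold lower) in sh_TDP43, with an edgeR adjusted p of 1.70e-07. It was -2.25 (SE 0.12, 4.77-fold lower) in sh_SRSF3, with an edgeR adjusted p of 2.70e-09. In bulk RNA, fewer cells that express a gene and less of its RNA per cell cannot be told apart.

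KRT86, its near copy, ran far lower and moved the same way. Its levels were 14.4 and 13.4 CPM in sh_control, 6.43 and 8.05 CPM in sh_TDP43 and 3.88 and 4.74 CPM in sh_SRSF3. Again the groups did not overlap and took the order control, sh_TDP43, sh_SRSF3. The log2 change was -0.94 (SE 0.18) in sh_TDP43, edgeR adjusted p = 0.000711. In sh_SRSF3 it was -1.69 (SE 0.19), edgeR adjusted p = 2.11e-06. Per read count, KRT81 had 76.3 ± 4.63 reads for each read of KRT86 in sh_control, 47.4 ± 13.7 in sh_TDP43 and 52.6 ± 15.2 in sh_SRSF3 (SD, n = 2). With the reads of both genes summed into 1 feature, the change was -1.65 in sh_TDP43 and -2.25 in sh_SRSF3, which is the change of KRT81.

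KRT80, a type II keratin found in differentiating epithelia, was lower in sh_TDP43 and near its control level in sh_SRSF3. It stood at 361 and 366 CPM in sh_control, at 78.9 and 54.4 CPM in sh_TDP43 and at 339.7 and 384 CPM in sh_SRSF3. Both sh_TDP43 libraries lay far below the other 4, while the sh_SRSF3 libraries lay on either side of the controls. The fall in sh_TDP43 was 5.45-fold (log2 change -2.45, SE 0.14, edgeR adjusted p = 2.84e-08). Among 15026 genes tested, KRT80 ranked 79 from the bottom by log2 change. In sh_SRSF3 the log2 change was -0.0063 (SE 0.14, 95% interval -0.30 to 0.28, edgeR adjusted p = 0.970).

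KRT17, the basal and stress-induced type I keratin, rose in sh_TDP43 and fell in sh_SRSF3, at low levels throughout. It had 49 and 185 reads (1.32 and 4.83 CPM) in sh_control, 401 and 886 reads (10.9 and 23.7 CPM) in sh_TDP43, and 12 reads in both sh_SRSF3 libraries (0.361 and 0.332 CPM). The groups did not overlap, but the libraries within sh_control and within sh_TDP43 lay far apart. The rise in sh_TDP43 was 5.61-fold (log2 change 2.49, SE 0.43, edgeR adjusted p = 0.000383). The fall in sh_SRSF3 was 8.83-fold (log2 change -3.14, SE 0.63, edgeR adjusted p = 0.000527). The sizes rest on single libraries. The rise was 1.83 on the log2 scale without replicate 2 of sh_TDP43, 1.83 without replicate 1 of sh_control and 3.70 without replicate 2 of sh_control. The log2 change in sh_SRSF3 was -3.79 without replicate 1 of sh_control and -1.92 without replicate 2 of sh_control. Direction and call were kept in each of these fits.

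KRT8 and KRT18, the pair of simple epithelia, rose by similar amounts in both knockdowns. KRT8 stood at 718 and 704 CPM in sh_control, at 975 and 1037 CPM in sh_TDP43 and at 914 and 1034 CPM in sh_SRSF3. KRT18 stood at 337 and 317 CPM in sh_control, at 412 and 436 CPM in sh_TDP43 and at 447 and 452 CPM in sh_SRSF3. For both genes, all 4 knockdown libraries lay above both controls. KRT8 rose by 0.50 (SE 0.10, edgeR adjusted p = 0.000792) in sh_TDP43 and by 0.45 (SE 0.10, edgeR adjusted p = 0.000808) in sh_SRSF3, on the log2 scale. KRT18 rose by 0.38 (SE 0.09, edgeR adjusted p = 0.00377) in sh_TDP43 and by 0.46 (SE 0.09, edgeR adjusted p = 0.000416) in sh_SRSF3. Per kilobase, KRT8 over KRT18 was 1.02 ± 0.030 in sh_control, 1.11 ± 0.0034 in sh_TDP43 and 1.013 ± 0.079 in sh_SRSF3 (SD, n = 2). The ratio was thus similar in all 3 groups. Its value near 1 depends on the exon lengths used, 6881 bases for KRT8 and 3218 for KRT18.

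KRT7 and KRT19, the further simple keratins, fell slightly in sh_SRSF3 and passed no test in sh_TDP43. KRT7 stood at 763 and 688 CPM in sh_control, at 813 and 758 CPM in sh_TDP43 and at 573 and 543 CPM in sh_SRSF3. Its sh_TDP43 and control libraries overlapped, and both sh_SRSF3 libraries were lower. KRT19 stood at 275.9 and 276.5 CPM in sh_control, at 281 and 295 CPM in sh_TDP43 and at 223 and 218 CPM in sh_SRSF3. Here too both sh_SRSF3 libraries were the lowest. In sh_SRSF3 the log2 change was -0.38 (SE 0.10, edgeR adjusted p = 0.00293) for KRT7 and -0.32 (SE 0.09, edgeR adjusted p = 0.00471) for KRT19. In sh_TDP43 it was 0.12 for KRT7 (95% interval -0.09 to 0.32, edgeR adjusted p = 0.342) and 0.061 for KRT19 (95% interval -0.13 to 0.25, edgeR adjusted p = 0.596).

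**Figure D1:**
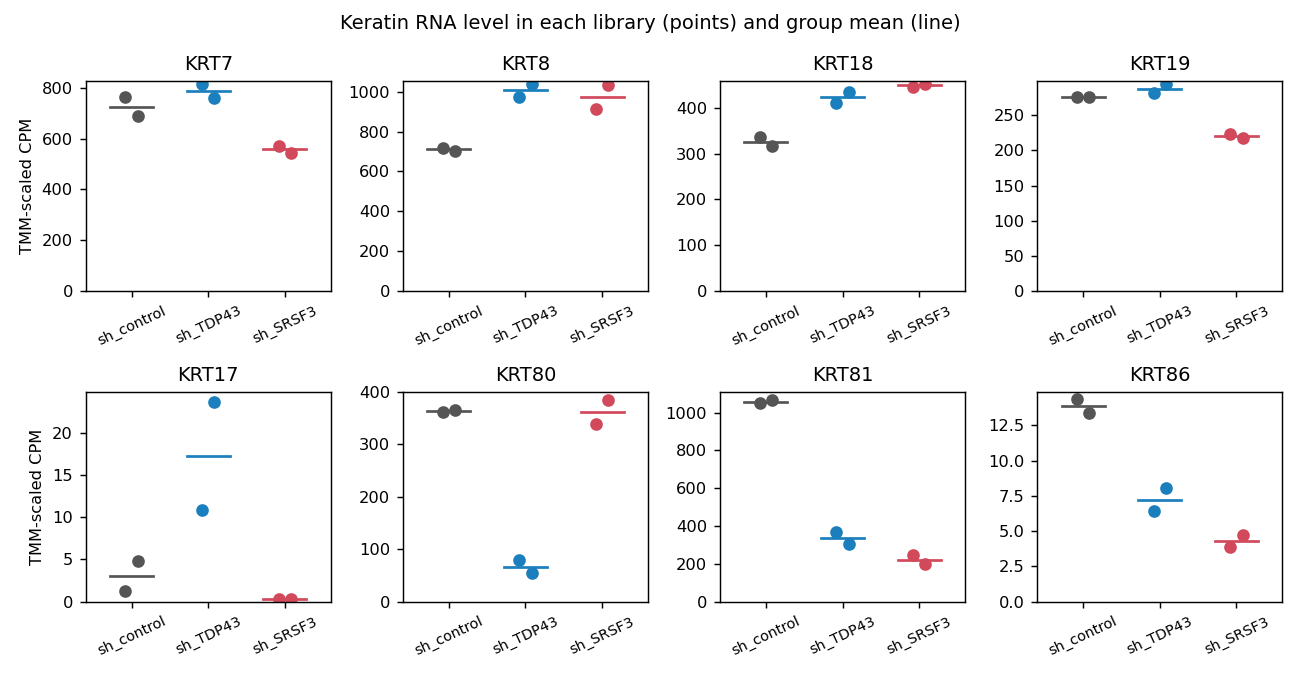
TMM-scaled CPM of each keratin (vertical axis, from 0, a scale of its own in each panel) in the 2 libraries of sh_control, sh_TDP43 and sh_SRSF3; points are libraries and lines are group means. KRT81 and KRT86 were lower in both knockdowns, KRT80 was low only in the sh_TDP43 libraries among these 3 groups, and KRT17 was spread widely within sh_control and sh_TDP43.

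All 8 members passed the low-count filter. In sh_TDP43, 6 of 8 passed the test against sh_control, where 44.8% of all genes tested did: 3 rose (20.7% of all genes) and 3 fell (24.1%). In sh_SRSF3, 7 of 8 passed, where 66.9% of all genes did: 2 rose (32.5%) and 5 fell (34.4%). The median log2 change of the 8 was 0.089 in sh_TDP43 and -0.35 in sh_SRSF3, beside -0.0035 and -0.033 over all genes. With another scaling the share of rising genes among all calls in sh_TDP43 went from 46.15% to 57.05% (upper-quartile scaling) or 57.14% (total counts alone). Both knockdown comparisons use the same 2 control libraries, so their values are not independent of each other.

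Setting the knockdowns against each other needs no control library, though both groups also enter the comparisons above. Relative to sh_SRSF3, 5 keratins were higher in sh_TDP43 (33.5% of all genes were) and 1 was lower (32% were), so 6 of 8 passed, beside 65.5% of all genes. KRT17 differed most, 49.5-fold higher in sh_TDP43 (log2 5.63, SE 0.58, edgeR adjusted p = 1.22e-06). The log2 difference was 4.98 without replicate 2 of sh_TDP43. KRT80 was 5.43-fold lower (log2 -2.44, SE 0.14, edgeR adjusted p = 6.75e-09), so the difference between the hairpins was tested and not read from 1 call and 1 missing call. KRT81 (0.60), KRT86 (0.75), KRT7 (0.50) and KRT19 (0.38) were higher in sh_TDP43 on the log2 scale, with edgeR adjusted p between 0.000399 and 0.00305. KRT8 (log2 difference 0.047, 95% interval -0.16 to 0.25, edgeR adjusted p = 0.684) and KRT18 (log2 difference -0.085, 95% interval -0.28 to 0.11, edgeR adjusted p = 0.417) did not pass. Upper-quartile scaling moved the median of all genes in this comparison by 0.25 and gave KRT8 0.30 (edgeR adjusted p = 0.0134) and KRT18 0.16. Less that shift these are 0.048 and -0.085. The subtraction returns about the TMM values by construction, so it does not decide between the scalings.

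**Figure D2:**
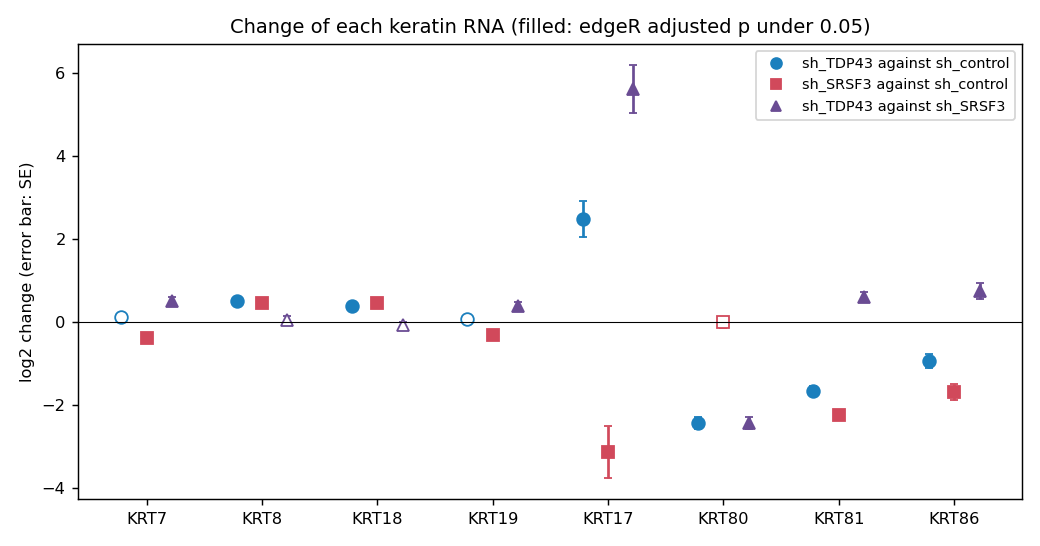
Log2 change of each keratin (vertical axis; error bars are SE) in sh_TDP43 against sh_control (circles), sh_SRSF3 against sh_control (squares) and sh_TDP43 against sh_SRSF3 (triangles); filled symbols passed an edgeR adjusted p of 0.05. KRT17 moved in opposite directions (2.49 and -3.14), KRT80 changed in sh_TDP43 (-2.45), and KRT8 and KRT18 rose by 0.38 to 0.50 in both.

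Summed over all 55 keratins per kilobase of exon, keratin RNA was 1172 ± 20.4 CPM per kb in sh_control, 819 ± 18.0 in sh_TDP43 and 753 ± 5.53 in sh_SRSF3 (SD, n = 2). The groups did not overlap, and the order was the same with upper-quartile scaling (1188, 886 and 686) and with total counts alone (1172, 876 and 704). The 8 members made up 97.2%, 96.7% and 94.6% of this sum. KRT81 alone took 46.8% ± 1.38 of it in sh_control, 21.2% ± 2.40 in sh_TDP43 and 15.3% ± 2.19 in sh_SRSF3. The size of these shares depends on the exon lengths used, which are 1929 bases for KRT81 and 6881 for KRT8. KRT81 itself went from 549 CPM per kb in sh_control to 174 in sh_TDP43 and 115 in sh_SRSF3. With TMM scaling this fall was at least as large as that of the whole sum, so by that scaling the other keratins together did not fall. In sh_SRSF3 this depended on the scaling and failed with the other 2, which gave a lower sum there (686 and 704, beside 753). The shares of KRT8 (8.82%, 17.9% and 18.8%) and KRT18 (8.66%, 16.1% and 18.6%) were larger in both knockdowns. KRT80 held 7.13% in sh_control, 1.87% in sh_TDP43 and 11.1% in sh_SRSF3.

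The balance of the chain types also differed. Type II keratins summed to 919 ± 7.24 CPM per kb in sh_control, 531 ± 30.3 in sh_TDP43 and 478 ± 2.75 in sh_SRSF3, and type I keratins to 253 ± 13.2, 288 ± 12.3 and 275 ± 2.77 (SD, n = 2). KRT81 is a type II keratin, and nearly all of the difference in the type II sums was its own (549, 174 and 115 CPM per kb). The ratio of type II to type I RNA was 3.64 ± 0.16 in sh_control, 1.85 ± 0.18 in sh_TDP43 and 1.74 ± 0.0075 in sh_SRSF3. No scaling between libraries alters this ratio, but its size depends on the exon lengths used. Among the simple keratins alone (KRT7 and KRT8 over KRT18 and KRT19) it was 1.28 ± 0.041, 1.33 ± 0.062 and 1.19 ± 0.032.

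**Figure D3:**
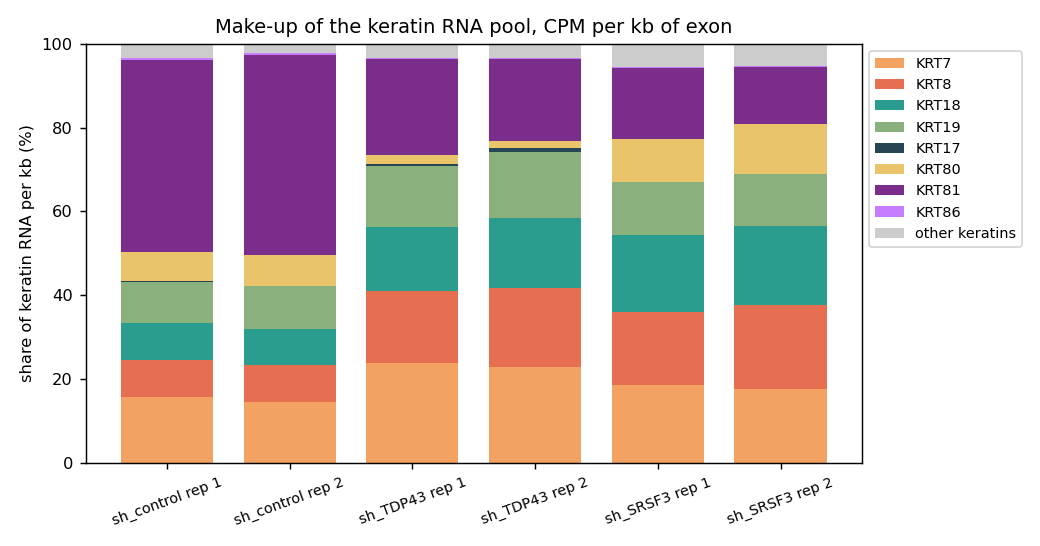
Share of each keratin in the summed keratin RNA of each library (vertical axis, percent of CPM per kb of exon; stacked bars, 1 per library; grey, the 47 other keratins). The KRT81 segment takes 46.8% on average in sh_control, 21.2% in sh_TDP43 and 15.3% in sh_SRSF3, and the KRT80 segment is thin in sh_TDP43.

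The order of the levels per kilobase changed accordingly. In sh_control it ran KRT81 (549 CPM per kb), KRT7 (177), KRT19 (118), KRT8 (103), KRT18 (102), KRT80 (83.5), KRT86 (5.80) and KRT17 (1.21), and only the neighbours KRT8 and KRT18 overlapped between libraries. In sh_TDP43 it ran KRT7 (192), KRT81 (174), KRT8 (146), KRT18 (132), KRT19 (123), KRT80 (15.3), KRT17 (6.81) and KRT86 (3.02), with KRT7 and KRT81 overlapping. In sh_SRSF3 it ran KRT8 (142), KRT18 (139.7), KRT7 (136), KRT81 (115), KRT19 (94.5), KRT80 (83.2), KRT86 (1.80) and KRT17 (0.137). There KRT8 overlapped KRT18, and KRT18 overlapped KRT7. KRT81 thus ranked 1 in sh_control and 4 in sh_SRSF3.

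Of the 47 other keratins, 7 passed the low-count filter and the remaining genes had at most 10 reads in any library. KRT15, a basal type I keratin, fell from a mean of 7.06 CPM in sh_control to 2.04 CPM in sh_TDP43 (log2 change -1.79, edgeR adjusted p = 0.000138) and 2.85 CPM in sh_SRSF3 (-1.31, edgeR adjusted p = 0.000618). KRT34, a hair keratin of type I, rose in sh_TDP43 from 0.873 to 2.85 CPM (log2 change 1.70, edgeR adjusted p = 0.00198) and was at 1.45 CPM in sh_SRSF3 (edgeR adjusted p = 0.110). KRT83, a hair keratin similar in sequence to KRT81 and KRT86, was lower in sh_TDP43 (0.108 CPM against 0.541, edgeR adjusted p = 0.0339) and in sh_SRSF3 (0.0854 CPM, edgeR adjusted p = 0.0152), on at most 26 reads a library. KRT10, a keratin of the upper epidermis, stood at 63.9 CPM in sh_control, 49.8 in sh_TDP43 (edgeR adjusted p = 0.0925) and 84.0 in sh_SRSF3 (log2 change 0.39, edgeR adjusted p = 0.0471), and this last call was lost with either other scaling.

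KRT4, a keratin of the oral and oesophageal lining, had 0 reads in both libraries of sh_control and of sh_SRSF3, and 89 and 72 reads in sh_TDP43. Against a floor of 3 reads in each control library it was at least 27.3-fold higher, and against sh_SRSF3 at least 25.1-fold higher. KRT39 had 8 and 17 reads in sh_control, 19 and 20 in sh_TDP43 and 0 in both sh_SRSF3 libraries, at least 3.80-fold lower than control by the same floor. KRT16, a keratin of wounded epidermis, was at or below 0.321 CPM in every library and passed no test. Of all 15 keratins tested, 5 rose and 5 fell in sh_TDP43, beside 20.7% and 24.1% of all genes. In sh_SRSF3, 3 rose (2 with either other scaling) and 8 fell, beside 32.5% and 34.4% of all genes. KRT4 passed the low-count filter only through sh_TDP43 and KRT83 only through sh_control, so the filter fixed the direction of their calls. KRT39 had 0 reads in sh_SRSF3 and passed through libraries of the other groups. The counts of rising and falling keratins include these genes and are a description only.

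Genes for the structures that keratin filaments attach to were read as lists, chosen with earlier results known and described by counts and medians. Each gene said to rise or fall passed an edgeR adjusted p of 0.05. Of all genes tested, 20.7% rose and 24.1% fell in sh_TDP43, and 32.5% rose and 34.4% fell in sh_SRSF3. The counts of this list and of those below stand beside these shares, and several are near them. Hemidesmosomes anchor keratins to the basement membrane. Of 7 of their genes tested, 6 fell and none rose in each knockdown, with a median log2 change of -0.88 in sh_TDP43 and -1.53 in sh_SRSF3 (all genes -0.0035 and -0.033). In sh_TDP43 the falls included ITGA6 (log2 change -1.97, SE 0.10) and COL17A1 (-1.16, SE 0.22). In sh_SRSF3 they included ITGB4 (log2 change -2.53, SE 0.11), COL17A1 (-1.64, SE 0.23) and LAMA3 (-1.57, SE 0.12). ITGA6 and ITGB4 encode the integrin of the hemidesmosome, and LAMA3 encodes a chain of the laminin it binds. The gene that did not pass was CD151 in sh_TDP43 (-0.061, edgeR adjusted p = 0.651) and LAMB3 in sh_SRSF3 (0.26, edgeR adjusted p = 0.0608). These counts were the same under both other scalings.

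Desmosomes join the keratin networks of neighbouring cells, and their genes did not move as a block. Of 9 tested, 2 rose and 3 fell in sh_TDP43 (4 and 3 with either other scaling), with a median log2 change of -0.069 that turned to 0.024 and 0.026 with those scalings. In sh_SRSF3, 3 rose and 5 fell (3 and 6 with either other scaling), with a median of -0.35. PKP2, a plakophilin, rose from 105 to 559 CPM in sh_SRSF3 (log2 change 2.41, SE 0.10). The desmosomal cadherin DSC2 fell there (-1.76, SE 0.22). The plakophilin PKP1 had 13 and 14 reads in sh_control and 0 in both sh_SRSF3 libraries, at least 4.13-fold lower. It passed the low-count filter only through sh_control, so the filter fixed the direction of its calls. In sh_TDP43, PKP1 fell to a mean of 0.054 CPM, plakoglobin (JUP) fell by 0.72 and PKP4 rose by 0.46 on the log2 scale.

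Linker and filament-organising proteins bind keratins directly. Of 8 tested, 3 rose and 2 fell in sh_TDP43 (median log2 change 0.35), and 1 rose and 4 fell in sh_SRSF3 (median -0.50). With either other scaling 4 rose in sh_TDP43 and 5 fell in sh_SRSF3. FAM83H, which organises keratin filaments, rose from 4.38 to 15.7 CPM in sh_TDP43 (log2 change 1.84, SE 0.18) and fell to 2.05 CPM in sh_SRSF3 (-1.10, SE 0.20). In sh_TDP43, DST, a plakin, rose by 0.78 (SE 0.11) and trichoplein (TCHP) fell by 0.73 (SE 0.14). In sh_SRSF3, periplakin (PPL) rose by 1.01 (SE 0.13) and TCHP fell by 0.77 (SE 0.14).

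Other intermediate filament genes fell more often than they rose. Of 10 tested, 1 rose and 5 fell in sh_TDP43 (median log2 change -0.35), and 1 rose and 7 fell in sh_SRSF3 (median -1.36). With upper-quartile scaling 3 fell in sh_TDP43, and with total counts alone 4 fell. Nestin (NES) fell from 55.2 CPM in sh_control to 18.5 CPM in sh_TDP43 (log2 change -1.58) and to 2.88 CPM in sh_SRSF3 (-4.27). The nuclear lamin gene LMNB1 fell from 173 CPM to 73.2 CPM in sh_TDP43 and to 30.2 CPM in sh_SRSF3. BFSP1, a filament gene known from the lens, rose by 0.94 in sh_TDP43, and syncoilin (SYNC) fell by 3.07 in sh_SRSF3.

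Transcription factors of epithelia changed in both directions. Of 9 tested, 2 rose and 3 fell in sh_TDP43, and 3 rose and 4 fell in sh_SRSF3 (2 rose with upper-quartile scaling). KLF5, a factor of proliferating epithelium, rose from 36.9 CPM to 78.9 CPM in sh_TDP43 (log2 change 1.10) and to 158 CPM in sh_SRSF3 (2.10). In sh_TDP43, TFAP2C fell by 1.43 and KLF4 by 1.02. In sh_SRSF3, EHF fell by 2.07, and GRHL3 rose by 1.95 at a mean of 0.418 CPM (edgeR adjusted p = 0.0377). The median log2 change was -0.070 and -0.23, and the first turned positive (0.025 and 0.030) with the other scalings.

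Genes of the cornified envelope, the outer layer of the epidermis, were mostly below the filter: 5 of 12 were tested, and 2 rose and 2 fell in each knockdown (1 fell in sh_TDP43 with upper-quartile scaling). Filaggrin (FLG), which bundles keratins, rose from 91.6 CPM to 142 CPM in sh_TDP43 (log2 change 0.64) and to 766 CPM in sh_SRSF3 (3.06). Transglutaminase 1 (TGM1), which cross-links envelope proteins, rose by 2.11 in sh_TDP43 and by 1.63 in sh_SRSF3. S100A2 fell by 1.33 in sh_TDP43, and CNFN fell by 1.17 in sh_SRSF3 (edgeR adjusted p = 0.0404). The median log2 change was -0.35 in sh_TDP43 and 0.20 in sh_SRSF3.

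**Figure D4:**
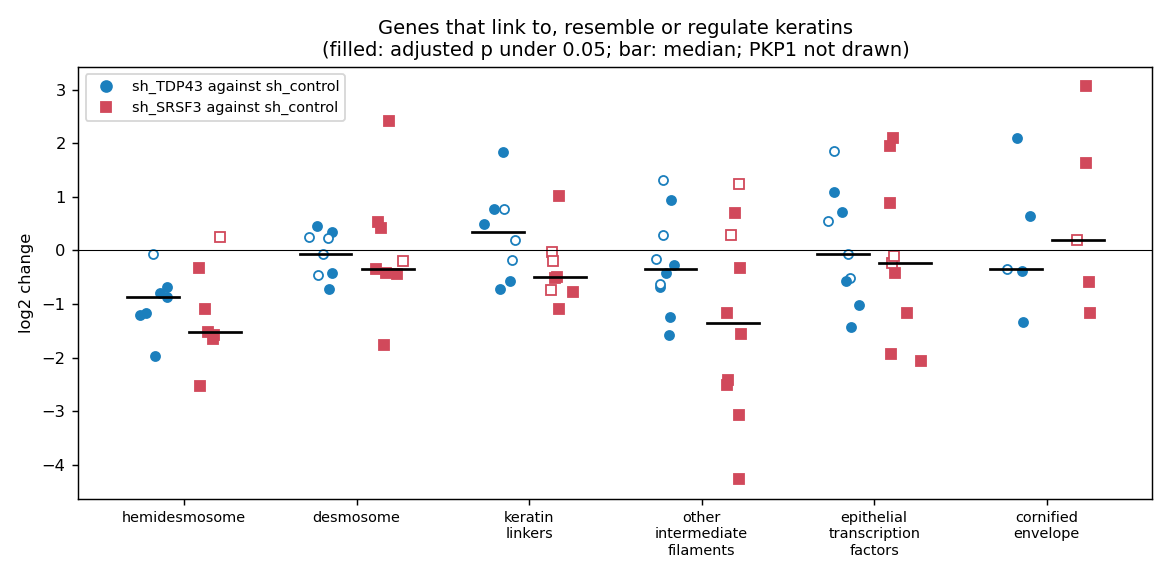
Log2 change (vertical axis) of each tested gene of 6 lists in sh_TDP43 (circles) and sh_SRSF3 (squares) against sh_control; filled symbols passed an edgeR adjusted p of 0.05, bars are list medians, and PKP1 is left out of the drawing because its sh_SRSF3 libraries are at 0. Hemidesmosome genes lie below 0 (CD151 in sh_TDP43 only just, at -0.061) except LAMB3 in sh_SRSF3 (0.26), while the desmosome genes spread to both sides.

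Summed markers of cell types also differed between the groups, except that the fibroblast sums of sh_control and sh_TDP43 overlapped. The 8 markers of the mesenchymal-like line summed to 6642 to 6740 CPM in sh_control, 4060.3 to 4311 in sh_TDP43 and 5489.6 to 5801 in sh_SRSF3. The 7 basal markers listed summed to 21.87 to 21.97 CPM in sh_control, 7.27 to 9.36 in sh_TDP43 and 5.43 to 5.44 in sh_SRSF3, with OXTR the highest of them in each library. The 9 luminal markers summed to 148 to 181, 88.9 to 98.9 and 121 to 141 CPM, with PGR and FOXA1 at or below 0.27 CPM. The 7 fibroblast markers summed to 22.8 to 23.5, 22.3 to 24.8 and 38.96 to 42.9 CPM, with DCN and PDGFRA at or below 0.22 CPM. The 6 haematopoietic markers summed to 99.5 to 127, 50.04 to 59.4 and 21.0 to 24.6 CPM, mostly LAPTM5, with CD3E at or below 0.11 CPM. Members of a list did not all move with its sum. In sh_SRSF3, LUM rose from 0.504 to 13.7 CPM and COL1A1 from 15.2 to 24.6 CPM. PDGFRB fell there from 5.89 to 1.26 CPM, and COL1A2 and COL3A1 did not pass. CAV1 rose in sh_SRSF3 from 791 to 1171 CPM, while 6 of the 8 mesenchymal-like markers fell (34.4% of all genes did). In sh_TDP43, PTPRC rose from 0.528 to 2.01 CPM and LAPTM5 fell from 109 to 49.6 CPM. The part of these markers in the keratin changes was not tested.

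The genes most alike in pattern to each keratin were found by Pearson correlation of log2 CPM over the 6 libraries, which form 3 pairs, among 9467 genes at a mean of at least 10 CPM. They were B3GNTL1 for KRT7 (r = 0.998), WDR59 for KRT8 (0.996), TEP1 for KRT17 (0.998) and TATDN3 for KRT18 (0.999). For KRT19 it was LZTS2 (r = 0.9998), for KRT80 ADRBK1 (0.998), for KRT81 CARHSP1 (0.9996) and for KRT86 HYAL2 (0.998). With 3 groups, many genes share a pattern: between 6 and 101 genes had r over 0.99 with a given keratin.

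In the RIP libraries each keratin is given as its level with the Flag antibody and in the input, in FPKM (a fragment count scaled to gene length and library depth) and then in a second deposited table of the same libraries whose unit is not named, here called the level table. With 1 library per group there is no replicate check and no test, and the log2 ratios carry a pseudocount of 1. No RIP with a control antibody or untagged cells is among the samples. TARDBP stood at 14.2 FPKM in the Flag-TDP43 input and 1.76 FPKM in the Flag-SRSF3 input, and SRSF3 at 29.3 and 54.9 FPKM.

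Of the 8 genes, KRT7 stood highest over its input with Flag-TDP43. It stood at 245 FPKM in the RIP and 100.4 FPKM in the input, a log2 ratio of 1.28 (2.43-fold) and 1.44 in the level table. KRT19 was the lowest of the 8 against its input, with 49.9 FPKM in the RIP and 152.5 FPKM in the input, a log2 ratio of -1.59 (3.02-fold lower) and -1.54 in the level table. These 2 genes, both simple keratins, lay on opposite sides of the 2-fold line in both tables. Among the members with FPKM values, KRT7 was the 1 past 2-fold higher (15.9% of all genes at 1 FPKM or more were) and KRT19 the 1 past 2-fold lower (13.1% were; 28.9% in either direction). In the level table these backgrounds were 11.4%, 13.5% and 25%, and the same 2 members were past 2-fold. KRT7 stood at percentile 90.0 and KRT19 at percentile 4.89 of the ratios of all genes.

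KRT8, KRT17, KRT18 and KRT80 stayed within 2-fold of input with Flag-TDP43. KRT8 had 32.7 FPKM in the RIP and 46.6 FPKM in the input (log2 ratio -0.50, and -0.31 in the level table), and KRT80 had 12.9 and 22.8 FPKM (-0.78, and -0.43 in the level table). KRT18 had 52.1 and 47.9 FPKM, a log2 ratio of 0.12 that was -0.37 in the level table. KRT17 was low in both, at 0.277 and 0.152 FPKM and so under the minimum of 1 FPKM set for the genes compared, and its log2 ratio of 0.15 was -0.30 in the level table. For KRT17 and KRT18 the tables thus differ in direction.

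With Flag-SRSF3, the pair KRT8 and KRT18 stood over its input. KRT8 had 129 FPKM in the RIP and 58.7 FPKM in the input (log2 ratio 1.12, 2.17-fold, and 1.11 in the level table). KRT18 had 229.8 FPKM in the RIP and 95.6 FPKM in the input (log2 ratio 1.26, 2.39-fold, and 1.09 in the level table). KRT17 had 6.21 and 2.59 FPKM (log2 ratio 1.00, and 0.45 in the level table). These 3 of 6 members were past 2-fold higher, where 14.7% of all genes were, and none was past 2-fold lower, where 6.82% were (21.5% in either direction). By the level table KRT8 and KRT18 were past 2-fold higher, beside 8.59% of all genes (7.24% lower, 15.8% in either direction).

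KRT7 (117 and 91.0 FPKM, log2 ratio 0.35, and 0.54 in the level table), KRT19 (146 and 125 FPKM, 0.23, and 0.25 in the level table) and KRT80 (28.7 and 20.7 FPKM, 0.45, and 0.27 in the level table) were within 2-fold of input with Flag-SRSF3. The median ratio of all genes was 0.18 here and 0.025 with Flag-TDP43. Centred on that median, KRT8 was at 0.94 and KRT17 at 0.82, both under 2-fold, and KRT18 at 1.07. The same centring moved the split of all genes past 2-fold from 1574 higher and 729 lower to 1102 and 1057, and the level table gave 1191 and 1004.

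KRT81 and KRT86 are listed at 0 in all 4 libraries of the FPKM table but have values in the level table. There KRT81 stood at 284 with Flag-TDP43 and 311 in its input (log2 ratio -0.13), and at 408 with Flag-SRSF3 and 257 in its input (0.66). KRT86 stood at 12.01 and 11.6 (0.049) and at 12.6 and 10.6 (0.23). KRT10, which is not 1 of the 8, was likewise listed at 0 in the FPKM table; in the level table it stood at 0.994 with Flag-TDP43 and 8.49 in its input, and at 14.7 with Flag-SRSF3 and 8.71 in its input. The 0 of such genes is therefore read as a listing, not as absence.

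**Figure D5:**
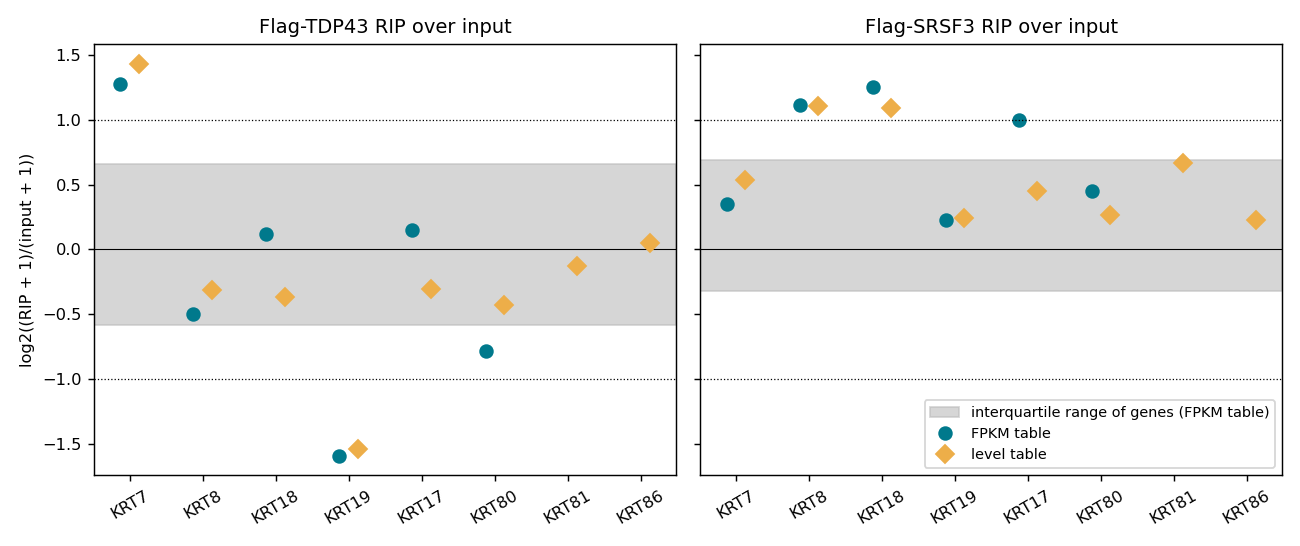
Log2 ratio of RIP over input with a pseudocount of 1 (vertical axis) for each keratin with Flag-TDP43 (left) and Flag-SRSF3 (right), from the FPKM table (circles) and the level table (diamonds); dotted lines mark 2-fold and the grey band is the interquartile range of all genes in the FPKM table. KRT7 lies over and KRT19 under the 2-fold lines with Flag-TDP43, KRT8 and KRT18 lie over it with Flag-SRSF3, and KRT81 and KRT86 have values in the level table only.

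The inputs themselves differed for KRT17, which had 2.59 FPKM in the Flag-SRSF3 cells and 0.152 FPKM in the Flag-TDP43 cells (log2 ratio 1.64, and 1.49 in the level table). With a pseudocount of 0.1 the log2 ratio was 3.42, so its size depends on that choice at this low level. It was the 1 member past 2-fold in either table. Of all genes, 3.69% were past 2-fold higher and 3.97% lower by FPKM (7.66% in all), and 1.52% and 1.44% by the level table (2.96% in all). KRT18 was at 0.98 in the FPKM table and at 0.020 in the level table, so its difference depends on the table. The other 4 members with values ranged from -0.29 (KRT19) to 0.33 (KRT8), and KRT7 (-0.14, and 0.11 in the level table) and KRT80 (-0.13, and 0.44 in the level table) changed sign between the tables. The authors' deposited table marks genes in a pair of binding columns whose header does not name the protein. The first marks 12067 of the 60675 genes listed, among them all members except KRT81. No gene marked there stood at 0 with Flag-SRSF3 in the level table, where 24652 genes were above 0. With Flag-TDP43, 215 of the marked genes stood at 0. The second marks 11014, among them KRT7, KRT8, KRT80 and KRT86. No gene marked in the second stood at 0 with Flag-TDP43, where 24308 genes were above 0, and 173 stood at 0 with Flag-SRSF3. By these levels the first column goes with the Flag-SRSF3 RIP and the second with the Flag-TDP43 RIP. A mark did not follow the ratio over input. Among members with the second mark, KRT7 stood above its Flag-TDP43 input, KRT8 and KRT80 stood below it, and KRT86 was near it in the level table.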

How the data were processed

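The knockdown values are raw read counts per gene, made by the authors with featureCounts 1.4.6-p5 per the file headers, without a strand option. The deposited RIP values are FPKM per the file headers, and a second deposited table gives a signal (level) for which no source used here names the unit; both hold the authors' log2 ratios. The submitters' processing notes name HISAT2 2.0.5, STAR 2.5.2a, StringTie 1.3.0 and Cufflinks, with no role for each. The members and lists were chosen with earlier results of these data known. Count columns that match no label (2) were not used, so planned tests of the combined knockdown were not run.

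Counts of 6 libraries were fitted in 1 model with edgeR 4.0.16 under R 4.3.3 (filterByExpr, TMM factors, two-sided quasi-likelihood test, Benjamini-Hochberg adjustment over 15026 genes, 3 residual degrees of freedom), tested on simulated data first. DESeq2 1.42.0 and other scalings were alternatives. RIP ratios are log2((RIP + 1)/(input + 1)) among genes at a level of at least 1 in either library, computed with pandas 2.3.3. Reported by rule are all 8 keratins, other keratins past the filter, up to 3 called genes of largest change per list and knockdown, and the gene most alike in pattern; some genes that the rule would name are not reported here. Duplicates were not repeats of 1 library (chi-square per gene 12.02 or more). Depth was 34457445 to 38326930 reads in the knockdown libraries. For each RIP library the step of the lowest values gave 27700000 to 28400000 reads by FPKM and 23100000 to 25500000 by the level table.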

Additional observations from a re-analysis of the deposited data

How the results depend on the processing

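Of 294 knockdown results of the 8 keratins under the alternatives, 286 kept their direction and their side of the threshold. In sh_TDP43 against sh_SRSF3, KRT18 turned to 0.16 (upper-quartile scaling) and 0.11 (total counts alone), KRT8 passed at 0.30 and 0.24, and leaving out 1 library gave KRT8 from -0.048 to 0.15. In sh_SRSF3, KRT80 was 0.012 with DESeq2 and ran from -0.11 to 0.083 leaving out 1 library. With all libraries and TMM scaling none of these 3 was called; the cause was not tested. Calls over all genes ran, leaving out 1 library, from 4486 to 6576 in sh_TDP43 (6728 with all), from 8749 to 9796 in sh_SRSF3 (10045) and from 8268 to 10165 between knockdowns (9842). Higher and lower calls were 3105 and 3623 in sh_TDP43 and became 3956 and 2978 with upper-quartile scaling and 3929 and 2947 with total counts alone; between knockdowns 5041 and 4801 became 6451 and 3378, and 6108 and 3641. In sh_SRSF3, 4881 and 5164 became 3959 and 6020 with upper-quartile scaling, which moved the median of all genes by -0.15, and 4266 and 5680 with total counts alone (-0.098). A replicate block gave 7672, 10565 and 10413 calls; same-numbered libraries correlated at 0.23, 0.22 and 0.17 in their deviations, but the labels give them only a number, so no pairing is assumed; the block changed no call of the 8 keratins. Genes past 2-fold numbered 3484 with a pseudocount of 0.1 (2303 with 1) for Flag-SRSF3, and between inputs 1317 with 0.1, 370 at a level of at least 5 and 405 in the level table, an alternative chosen after seeing the data (789 otherwise). No alternative was run for the combined knockdown, which has no matched counts. Precision is limited by 2 libraries per knockdown group, by the low counts of KRT17 and by 1 library per RIP group.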
